A study of Mus musculus with 12 samples.

Results

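The transcript response to cisplatin (CDDP) that wild-type and STING-/- hearts have in common was described across all genes of the series. It was taken as the difference between the 6 hearts of mice given CDDP and the 6 hearts of mice not given it, with each genotype compared within itself, so that all 12 hearts entered. The groups were Saline (wild-type mice, called untreated in the labels and given saline in the study's description), CDDP (wild-type mice given cisplatin), STING-/- (Tmem173-/- mice not given cisplatin) and STING-/-+CDDP (Tmem173-/- mice given cisplatin), with 3 hearts in each. All were male mice of 8 weeks, C57BL/6 in the labels and C57BL/6J in the study's methods, and cisplatin was injected into the peritoneum at 6 mg/kg on days 1, 8 and 15 before cardiac tissues were collected on day 22. The study kept 6 mice in each group, of which 3 hearts were sequenced. The labels give the STING-/- genotype as Tmem173-/- and name no promoter or cell type, and the transcript of the gene was still measured in these hearts.

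Cisplatin binds DNA and links neighbouring bases, and such links stall RNA and DNA polymerases until excision repair removes them. The damage activates p53, a transcription factor that switches on genes of cell cycle arrest and cell death, and platinum is also bound by metallothioneins and glutathione. STING is an adaptor protein of the endoplasmic reticulum that answers to DNA in the cytosol and drives the production of type I interferon. Interferon in turn raises a known set of genes through transcription factors that bind an element in their promoters. The heart holds resident macrophages, fibroblasts, endothelial cells and blood beside its muscle cells, and RNA of whole tissue mixes them all.

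Expression was given as TPM, which scales the reads on each gene by its length and each heart to the same sum, so the number of reads behind a value is unknown. Changes are differences in log2(TPM + 1), which understate the change of genes with low TPM. A gene entered the limma test when 3 or more hearts reached a TPM of 1, which left 13815 genes, and a gene was called when its Benjamini-Hochberg adjusted p was under 0.05. The first principal component, with 32.8% of the variance, put the 6 untreated hearts between -40.63 and -21.14, the STING-/-+CDDP hearts between 0.99 and 8.99, and the CDDP hearts between 38.4 and 62.3. Sting1, the targeted gene, had TPM of 12.3, 6.59 and 6.50 with Saline, 22.1, 5.62 and 8.81 with CDDP, 3.82, 5.96 and 2.87 in STING-/- mice and 4.26, 4.67 and 3.37 in STING-/- mice given CDDP, so the genotypes overlapped between 5.62 and 5.96 and no STING-/- heart was at 0, and a TPM per gene does not show which part of the gene was read. Ventricular muscle genes were high in every heart, with a summed TPM of 34717 to 66836 over 12 genes. Atrial genes were uneven, with sums from 541 to 41218 among the Saline, 1520 to 17553 among the CDDP, 3534 to 13947 among the STING-/- and 1017 to 10452 among the STING-/-+CDDP hearts. Of the 14 atrial genes 0 were called by limma (1 higher and 2 lower at an unadjusted p under 0.05), and a fit with their level as a covariate called 3628 genes in place of 2740.

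Averaged over the genotypes, 2740 genes were called, 19.8% of those tested. Of these, 1006 were higher with cisplatin (7.28% of tested genes) and 1734 were lower (12.6%), so that 36.7% of the calls were rises. That split depended on how the hearts were scaled to each other, since rises made up 51.7% of the calls after scaling by the median of ratios, 51.4% after quantile normalization, and 46.6% when the hearts were weighted by their fit. The groups did not overlap in either genotype, in the same direction, for 1601 genes (11.6% of those tested), and 1501 of these were among the calls, 458 higher and 1043 lower. For these 1601 genes the exact stratified permutation test of single genes gave 0.005, the smallest two-sided p that its 400 arrangements allow. Without STING-/-+CDDP 1 the rises numbered 633, and without STING-/- 3 they numbered 644. A change of at least 1 on the log2 scale was found for 171 of the rises and 376 of the falls.

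The genotypes were first compared with each other, because a response counts as common only if it appears in each. With the CDDP and Saline hearts, 2610 genes (18.9%) were called, and with the STING-/-+CDDP and STING-/- hearts 129 genes (0.934%), of which 35 were higher and 94 lower. Without Saline 1 or Saline 3 the wild-type count was 1241 or 1736, and the STING-/- count was 15, 25 and 30 without STING-/- 1, 2 and 3, 23, 48 and 27 without STING-/-+CDDP 1, 2 and 3, and 203 without CDDP 1. The comparisons within genotypes use different hearts, though they share 1 estimate of the spread. Of the 129 genes called in STING-/- hearts, 129 had changed in the same direction in the wild-type hearts, and for 125 of them the CDDP and Saline hearts did not overlap. Of the 2610 genes called in wild-type hearts, 88.1% had the same direction in STING-/- hearts and 47.7% did not overlap there in that direction, against 66.9% of all tested genes that had the same direction in both genotypes.

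Called in each genotype and in the same direction were 116 genes, 0.84% of those tested, of which 32 were higher and 84 lower. They made up 4.44% of the wild-type calls and 89.9% of the STING-/- calls. The 84 lower genes had a median of -1.40 in wild-type and -1.47 in STING-/- hearts, and the 32 higher genes 1.45 and 1.27. The number rested on every STING-/- heart. It was 15, 25 and 28 without STING-/- 1, 2 and 3, and 21, 44 and 26 without STING-/-+CDDP 1, 2 and 3, while scaling by the median of ratios gave 228 and quantile normalization 263. The averaged calls numbered 1887 to 2653 when each heart was left out in turn. The 20 genes with the largest separated changes kept their averaged call under every alternative, but they were picked for size and separation in these same hearts. Of all 139 named genes, 29 lost the call under at least 1 of 24 alternatives, those without a minimum change. Over all 13815 genes the changes in the genotypes had a Pearson r of 0.51, a description across genes that are not independent of each other.

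**Figure D1:**
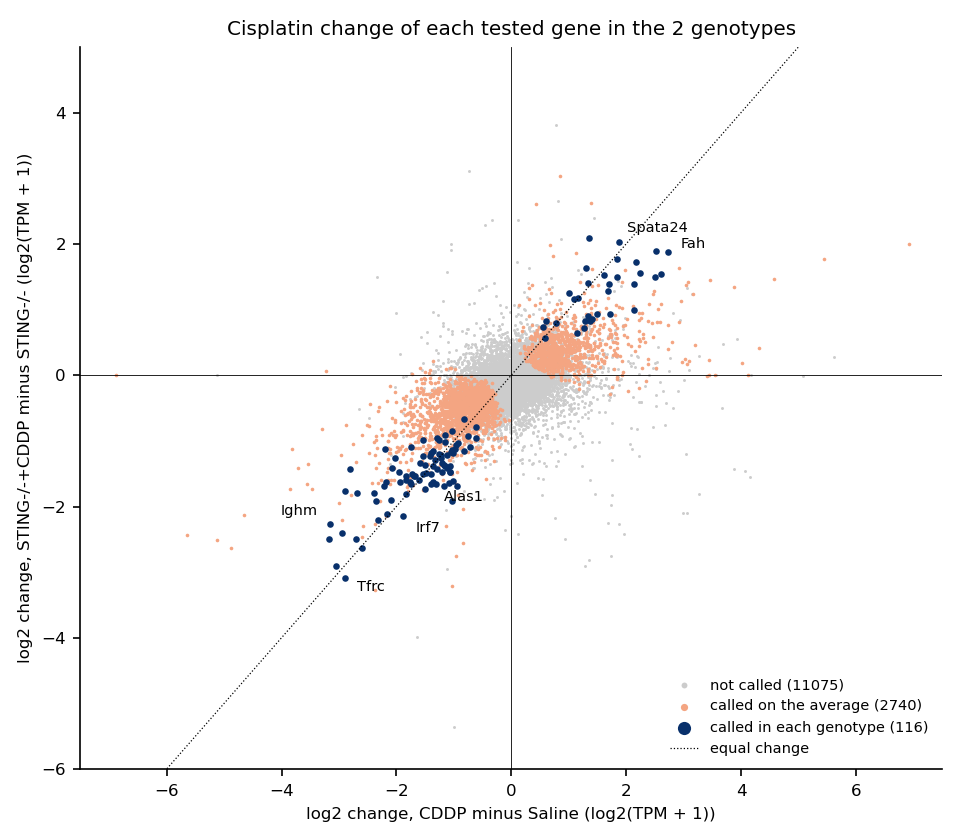
Log2 change with cisplatin of the 13815 tested genes in wild-type hearts (x axis, CDDP minus Saline) and in STING-/- hearts (y axis, STING-/-+CDDP minus STING-/-), each from 3 hearts against 3, in units of log2(TPM + 1). Grey points are genes not called, orange points the 2740 called on the average of both genotypes, and dark blue points the 116 called in each genotype, all of which lie in the lower left or upper right part of the plot.

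The 84 lower genes included 12 interferon-stimulated, 5 MHC class II and 3 macrophage genes of the lists. Promoters are shown first, because many of those of interferon genes hold a shared element. The interferon-stimulated response element core, here GAAANNGAAA on either strand, was looked for in the RefSeq promoters of GRCm38.p6 (250 bases before to 50 after the first listed start), which were found for 10152 of the tested genes. This element was chosen after the values had been seen. It was in 3.14% of all 10152 promoters, 5.63% of those of genes called lower, 3.69% of those called higher, 24.6% (15 of 61) of those of genes called lower in each genotype, and 10% (2 of 20) of those of genes called higher in each genotype. Of the promoters of the interferon list, 65% (13 of 20) held it, and only promoters with a match are printed. Below, matches are in capitals, those on the other strand appear as TTTCNNTTTC, and all sequences run 5′ to 3′ along the gene's own strand.
Ifit1 (chr19:34640775-34640823, plus strand): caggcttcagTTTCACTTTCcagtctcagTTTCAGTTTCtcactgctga
Isg15 (chr4:156200865-156200906, minus strand): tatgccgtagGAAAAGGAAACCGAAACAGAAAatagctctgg
Ifit3b (chr19:34607759-34607822, plus strand): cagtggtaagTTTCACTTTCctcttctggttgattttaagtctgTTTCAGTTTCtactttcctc
Oas1a (chr5:120907520-120907555, minus strand): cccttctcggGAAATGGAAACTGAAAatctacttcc
Bst2 (chr8:71537577-71537612, minus strand): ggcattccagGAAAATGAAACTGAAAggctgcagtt
Gbp3 (chr3:142559989-142560024, plus strand): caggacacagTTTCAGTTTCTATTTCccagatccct
B2m (chr2:122147538-122147567, plus strand): ataagaacatGAAACTGAAAatgggaaagt
The matches lie 104 and 85 bases before the start in Ifit1, 20 and 14 in Oas1a, 130 and 124 in Bst2, 45 and 39 in Gbp3, and 139 in B2m. Isg15 holds 3 of them, one overlapping the next. A match describes the letters of the promoter and does not show that a factor was bound.

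Type I interferon-stimulated genes were lower with cisplatin as a group. Of the 30 genes listed, 30 were tested, 29 were called lower and 0 higher, against 12.6% of all tested genes called lower, and 12 were called in each genotype. Their median change was -1.16 on the average, -1.03 in wild-type and -1.26 in STING-/- hearts, beside -0.05, 0.00 and -0.11 for all tested genes. The single gene not called was Mx2, at -0.33. The summed TPM of the 30 genes was 740 to 1483 in the untreated hearts and 218 to 453 in the hearts with cisplatin, so the groups did not overlap.

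Irf7 (chr7:141262706-141266481), a transcription factor that amplifies interferon production, had TPM of 78.8, 46.95 and 58.01 with Saline and 14.2, 22.6 and 11.7 with CDDP. In STING-/- hearts it had 93.4, 59.6 and 50.6 without and 15.9, 14.4 and 12.2 with cisplatin. Every heart with cisplatin was below every heart without it, and the change was -2.01 on the average (SE 0.20, limma adjusted p = 0.000184). Isg15 (chr4:156199424-156200818), a ubiquitin-like protein joined to others during antiviral responses, fell from 58.02, 31.99 and 30.3 to 14.2, 16.6 and 12 in wild-type and from 66.2, 40.6 and 34.2 to 18.4, 13.3 and 11.1 in STING-/- hearts, TPM in each case. Its change of -1.50 (SE 0.21, limma adjusted p = 0.000908) was -1.37 in wild-type and -1.63 in STING-/- hearts.

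Ifit1 and Ifit3b, which bind foreign RNA, and Oas1a, which makes a signal that activates an RNA-cutting enzyme, carry the element printed above and behaved alike. Ifit1 went from 15.8, 11.1 and 8 to 2.44, 5.53 and 3.48 TPM in wild-type hearts and from 20.2, 11.5 and 12.1 to 4.86, 3.70 and 3.11 in STING-/- hearts (change -1.52, limma adjusted p = 0.000917). Oas1a went from 15.6, 9.61 and 7.20 to 1.89, 3.73 and 1.33 and from 15.3, 12.6 and 9.40 to 3.40, 2.83 and 2.15 (change -1.82, limma adjusted p = 0.00045), and reads of its close copies such as Oas1g may be shared with it. In each of these genes the ranges with and without cisplatin stood apart in both genotypes. Bst2, a membrane protein that tethers budding viruses, changed by -1.71 (SE 0.18) and Ifi27l2a, the most abundant gene of the list, by -1.84 (SE 0.25), with limma adjusted p of 0.000287 and 0.000856. The RNA sensors Ddx58 (RIG-I) and Dhx58 changed less, by -0.79 and -1.11, and the kinase-binding sensor Zbp1 by -1.31, all 3 called in each genotype. Irf9, a factor of the interferon response, changed by -1.10 (limma adjusted p = 0.000311).

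Beta-2 microglobulin (B2m, chr2:122147686-122153083), the invariant chain of MHC class I that every nucleated cell carries, was the most abundant of the 84 genes called lower in each genotype. Its TPM was 2097, 1553 and 1504 in Saline and 823, 719 and 739.6 in CDDP hearts, and 1644, 1623 and 1232 in STING-/- and 759.9, 886 and 588 in STING-/-+CDDP hearts. The change of -1.09 (SE 0.13, limma adjusted p = 0.000435) was -1.16 and -1.02 in the genotypes, with no overlap. B2m and Gbp3 (change -1.43) are on no list and were chosen after their values had been seen.

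MHC class II genes, which present antigens on macrophages, dendritic cells and B cells, held some of the largest falls of all. Of 10 genes listed, 6 were tested, all 6 were called lower and 5 in each genotype, against 12.6% and 0.84% of all tested genes. Their median was -2.61 (-2.65 in wild-type and -2.50 in STING-/- hearts). H2-Aa (chr17:34282744-34287823) had TPM of 129, 88.2 and 46.3 in Saline, 5.46, 11.9 and 10.6 in CDDP, 155, 90.8 and 99.5 in STING-/- and 10.98, 19.9 and 12.7 in STING-/-+CDDP hearts. Its change was -2.98 (SE 0.27, limma adjusted p = 0.00012), and the lowest untreated heart stood above the highest with cisplatin in each genotype. H2-Ab1 (chr17:34257689-34269419) changed by -2.84, H2-Eb1 (chr17:34305867-34316674) by -2.61, the peptide loader H2-DMb1 by -1.78 and Cd74, the chain that guards the groove, by -2.60, with limma adjusted p between 6.27e-05 and 0.000549. In RNA of whole hearts, fewer cells of a type and less RNA per cell cannot be told apart, here and for the cell type genes that follow.

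Macrophage genes were lower in the same hearts. Of 18 genes, 18 were tested, 12 were called lower and 0 higher, against 12.6% and 7.28% of all tested genes. Their median was -1.12, and their summed TPM was 703 to 989 in Saline, 349 to 499 in CDDP, 1107 to 1694 in STING-/- and 451 to 968 in STING-/-+CDDP hearts. The sums did not overlap within a genotype, but the STING-/-+CDDP hearts reached the range of the Saline hearts. Mrc1, the mannose receptor of resident macrophages, went from 17.1, 20.8 and 14.9 to 3.35, 5.37 and 5.37 TPM in wild-type and from 19.7, 19.3 and 13.8 to 7.07, 6.80 and 3.37 in STING-/- hearts (change -1.61, SE 0.18, limma adjusted p = 0.000389). Timd4, a receptor for dying cells on resident macrophages, and Fcgr1, an antibody receptor, were called in each genotype as well, with -1.49 and -1.22. Folr2 changed by -2.03 and F13a1 by -1.98, and the complement genes C1qa and C1qb by -1.12 and -1.06, and these were called on the average and in wild-type hearts but not in STING-/- hearts alone. Lyz2, Lyve1, Cd68, Pf4, Mertk and Cd163 were not called, at 0.25, 0.02, -0.33, -0.36, -0.27 and -0.94, so the list did not move as 1 block. Mgl2 (chr11:70130329-70137550), a lectin of macrophages and dendritic cells, was on no list but had one of the 10 largest separated falls, from 30, 10.8 and 8.83 to 0.34, 1.38 and 1.47 TPM and from 18.3, 18.5 and 14.4 to 2.51, 3.21 and 1.61 (change -2.68, limma adjusted p = 0.000229). The chemokine receptor Cx3cr1, chosen after its values had been seen, changed by -1.90 and was called in each genotype.

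Lymphocyte genes were mostly too low to test. Of 19 listed, 8 were tested and 6 called lower, against 12.6% of all tested genes. Cd3e, Cd3d, Cd8a, Cd79a, Ms4a1 and Klrb1c stayed below 1 TPM in every heart. Ighm (chr12:113418558-113422730), the heavy chain of IgM, had TPM of 23.6, 12.7 and 13.03 in Saline and 0.82, 0.95 and 0.89 in CDDP hearts. It had 15.1, 10.4 and 8.47 in STING-/- and 1.48, 1.68 and 1.41 in STING-/-+CDDP hearts, a change of -2.70 (SE 0.17, limma adjusted p = 1.37e-05) with no overlap. Ccl5, a chemokine of T and NK cells, changed by -2.16 (limma adjusted p = 0.0015) and Ccl12, which draws monocytes, by -2.30 (0.000529 by the same test). Neutrophil genes did not share these falls, since 1 of 9 tested (Lcn2) was called higher and 0 lower. Their summed TPM, Lcn2 included, was 24 to 35 in Saline, 223 to 2178 in CDDP, 33 to 242 in STING-/- and 165 to 236 in STING-/-+CDDP hearts. The part of immune cell numbers in the lower interferon genes was not tested.

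Genes of red blood cells were lower, but unevenly so. Of 8 tested, 7 were called lower, against 12.6% of all tested genes, with a median of -4.23 in wild-type and -1.62 in STING-/- hearts. Their summed TPM was 4235 to 9408 in Saline, 127 to 1348 in CDDP, 344 to 1552 in STING-/- and 176 to 395 in STING-/-+CDDP hearts. Within STING-/- mice the groups overlapped, and 0 of the 8 genes were called there by limma, with 5 lower at an unadjusted p under 0.05. Hbb-bs, a beta globin, had TPM of 2788, 1949 and 4181 in Saline, 574, 58.2 and 14.9 in CDDP, 578, 640.4 and 115 in STING-/- and 42.6, 36.2 and 141 in STING-/-+CDDP hearts (change -3.82, SE 0.77, limma adjusted p = 0.00615). The globin genes are near-identical copies among which reads may be split, and the remaining blood in each heart was not measured.

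**Figure D2:**
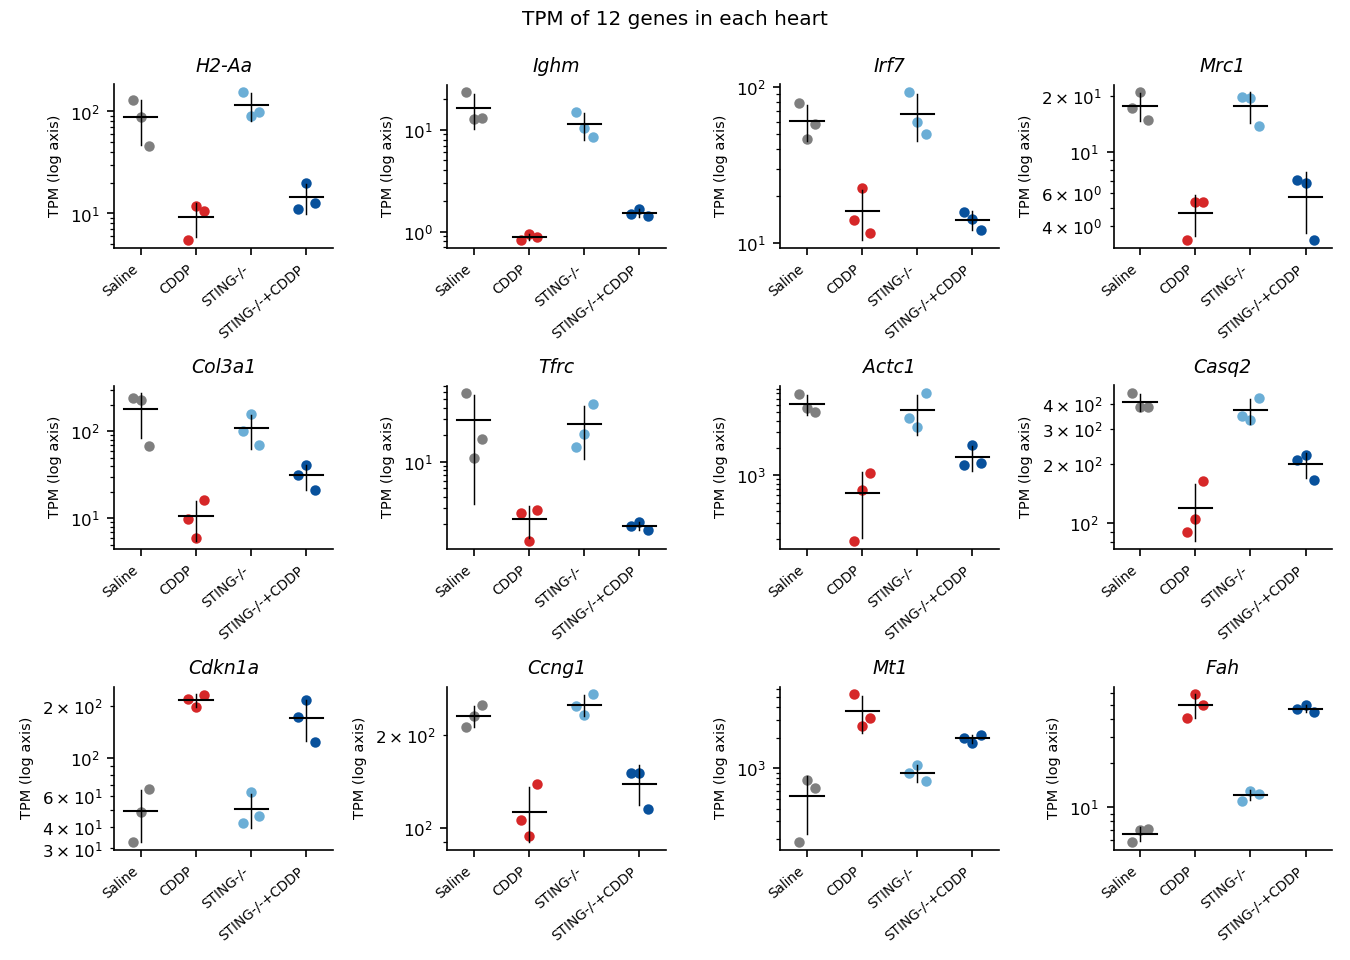
TPM (log axis) of 12 genes in each of the 12 hearts, 3 hearts per group on the x axis, with the mean as a bar and 1 SD as a line. The first 8 genes are lower and Cdkn1a, Mt1 and Fah higher in the hearts with cisplatin of each genotype, while Ccng1, a p53 target, is lower.

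Iron handling showed the largest separated fall of any gene named by the rule. Tfrc (chr16:32608920-32632794), the transferrin receptor through which cells take up iron, had TPM of 58.7, 10.97 and 17.9 with Saline and 2.68, 1.28 and 2.89 with CDDP. In STING-/- hearts it had 14.6, 20.2 and 43.6, and 1.89, 2.08 and 1.70 with cisplatin. No heart with cisplatin reached the lowest untreated heart, and the change was -2.99 (SE 0.37, limma adjusted p = 0.000511), nearly the same in wild-type (-2.90) and STING-/- hearts (-3.09). Alas1 (chr9:106233455-106248654), which makes the first step of heme synthesis, fell from 312, 179 and 229 to 74.3, 106 and 105 and from 229, 283 and 399 to 74.4, 129 and 84.3 TPM (change -1.48, SE 0.19, limma adjusted p = 0.000603), and was also called in each genotype. By contrast, ferritin heavy chain (Fth1), which stores iron, rose by 0.61 (limma adjusted p = 0.00112), and heme oxygenase (Hmox1), which breaks heme down, by 1.14 (0.0121 by the same test). Of the 25 iron genes tested, 4 were called higher and 3 lower, against 7.28% and 12.6% of all genes.

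Collagens were lower as a family. Of 23 tested, 19 were called lower and 0 higher, against 12.6% and 7.28% of all tested genes. Their median was -1.12, and 22 had a negative averaged change. The fall was larger in wild-type (median -1.46) than in STING-/- hearts (-0.91), and 0 of the 23 were called by limma in STING-/- hearts alone (15 were lower at an unadjusted p under 0.05), while 14 did not overlap in either genotype. Col3a1 (chr1:45311538-45349706), a fibrillar collagen of soft tissue, had TPM of 242, 228 and 68.4 in Saline and 9.87, 5.91 and 16.3 in CDDP hearts, and 99.99, 159 and 68.7 in STING-/- and 31.5, 40.9 and 21.2 in STING-/-+CDDP hearts. Its change of -2.79 (SE 0.35, limma adjusted p = 0.000532) was -3.85 in wild-type and -1.74 in STING-/- hearts, a difference with an unadjusted interaction p of 0.0115 that did not pass adjustment. Col15a1 (chr4:47208161-47313167), a basement membrane collagen, changed by -2.60 (limma adjusted p = 0.000461) and Col1a1 by -1.89. Sparc, which binds collagen outside the cell, and Serpinh1, a chaperone that folds it, fell by 1.30 and 0.97 on the log2 scale (limma adjusted p = 0.000917 and 0.00369). Among the other 37 matrix genes 10 were called lower and 1 higher. Fibroblast markers, which include 3 collagens, had 5 of 14 called lower, and their sums overlapped widely, 2279 to 5645 TPM in Saline and 1908 to 5289 in CDDP hearts. Pericyte and smooth muscle genes had 6 of 13 called lower and endothelial genes 4 of 20, and the part of these cells in the collagen result was not tested.

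Genes of the muscle cell itself moved in both directions. Actc1 (chr2:114047282-114053548), the cardiac actin, had one of the 10 largest separated falls, with TPM of 7824, 5559 and 5036 in Saline, 187, 681 and 1067 in CDDP, 4254, 3444 and 8112 in STING-/- and 1282, 2149.9 and 1369.8 in STING-/-+CDDP hearts. The change was -2.60 (SE 0.38, limma adjusted p = 0.00108), -3.55 in wild-type and -1.66 in STING-/- hearts. Actc1 was not called in STING-/- hearts alone (limma adjusted p = 0.183). Actin genes share long stretches of sequence between which reads can be split. Des (chr1:75360329-75368579), the intermediate filament that holds sarcomeres in register, rose instead, from 501, 566 and 476 to 1082, 1241 and 1096 TPM in wild-type and from 511, 560.0 and 628 to 786, 954 and 913 in STING-/- hearts (change 0.90, SE 0.09, limma adjusted p = 0.000184), and was called in each genotype. Of 27 sarcomere genes 3 were called higher and 3 lower, a share near the background of 7.28% and 12.6%. Nppb, the stretch-induced natriuretic peptide, fell by 2.54 on the log2 scale (SE 0.60, limma adjusted p = 0.0133), with 456, 1175 and 513 TPM in Saline, 363, 39.6 and 82.1 in CDDP, 165, 162 and 432 in STING-/- and 31.9, 128 and 15.3 in STING-/-+CDDP hearts. It was called in neither genotype alone (limma adjusted p = 0.0514 in wild-type and 0.212 in STING-/- hearts).

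Calcium handling and ion channel genes leaned towards lower expression. Of 26 calcium handling genes 9 were called lower and 1 higher, of 24 ion channel genes 6 lower and 0 higher, and of 28 adrenergic and cAMP genes 6 lower and 0 higher, where 12.6% of all tested genes were lower and 7.28% higher. The median change was -0.48 for the calcium handling genes, but that of the adrenergic and cAMP genes was -0.09, close to the -0.05 of all tested genes. Casq2, the calcium buffer of the cardiac sarcoplasmic reticulum, went from 456, 389 and 385 to 90.4, 104 and 162 TPM in wild-type and from 350.1, 332 and 432 to 208, 221 and 164 in STING-/- hearts, with no overlap (change -1.36, SE 0.15, limma adjusted p = 0.000283). The pump Atp2a2 and its inhibitor Pln were at -0.01 and -0.07 and were not called. Gja1 (chr10:56377330-56402513), the gap junction protein connexin 43, was the single channel gene called in each genotype, at 180.3, 117 and 107 and 74.6, 58.1 and 69.6 TPM in wild-type and 87.2, 119 and 97.5 and 47.7, 50.1 and 44.8 in STING-/- hearts (change -1.01, SE 0.14, limma adjusted p = 0.000794). Adrb1, the main beta-adrenergic receptor of the heart, changed by -1.17 (limma adjusted p = 0.000443), -1.74 in wild-type and -0.60 in STING-/- hearts. The potassium channel subunit Kcne1 changed by -1.70, the phosphodiesterase Pde4a by -1.16 and the kinase subunit Prkaca by -0.51, with limma adjusted p of 0.00369, 0.00146 and 0.00371.

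**Figure D3:**
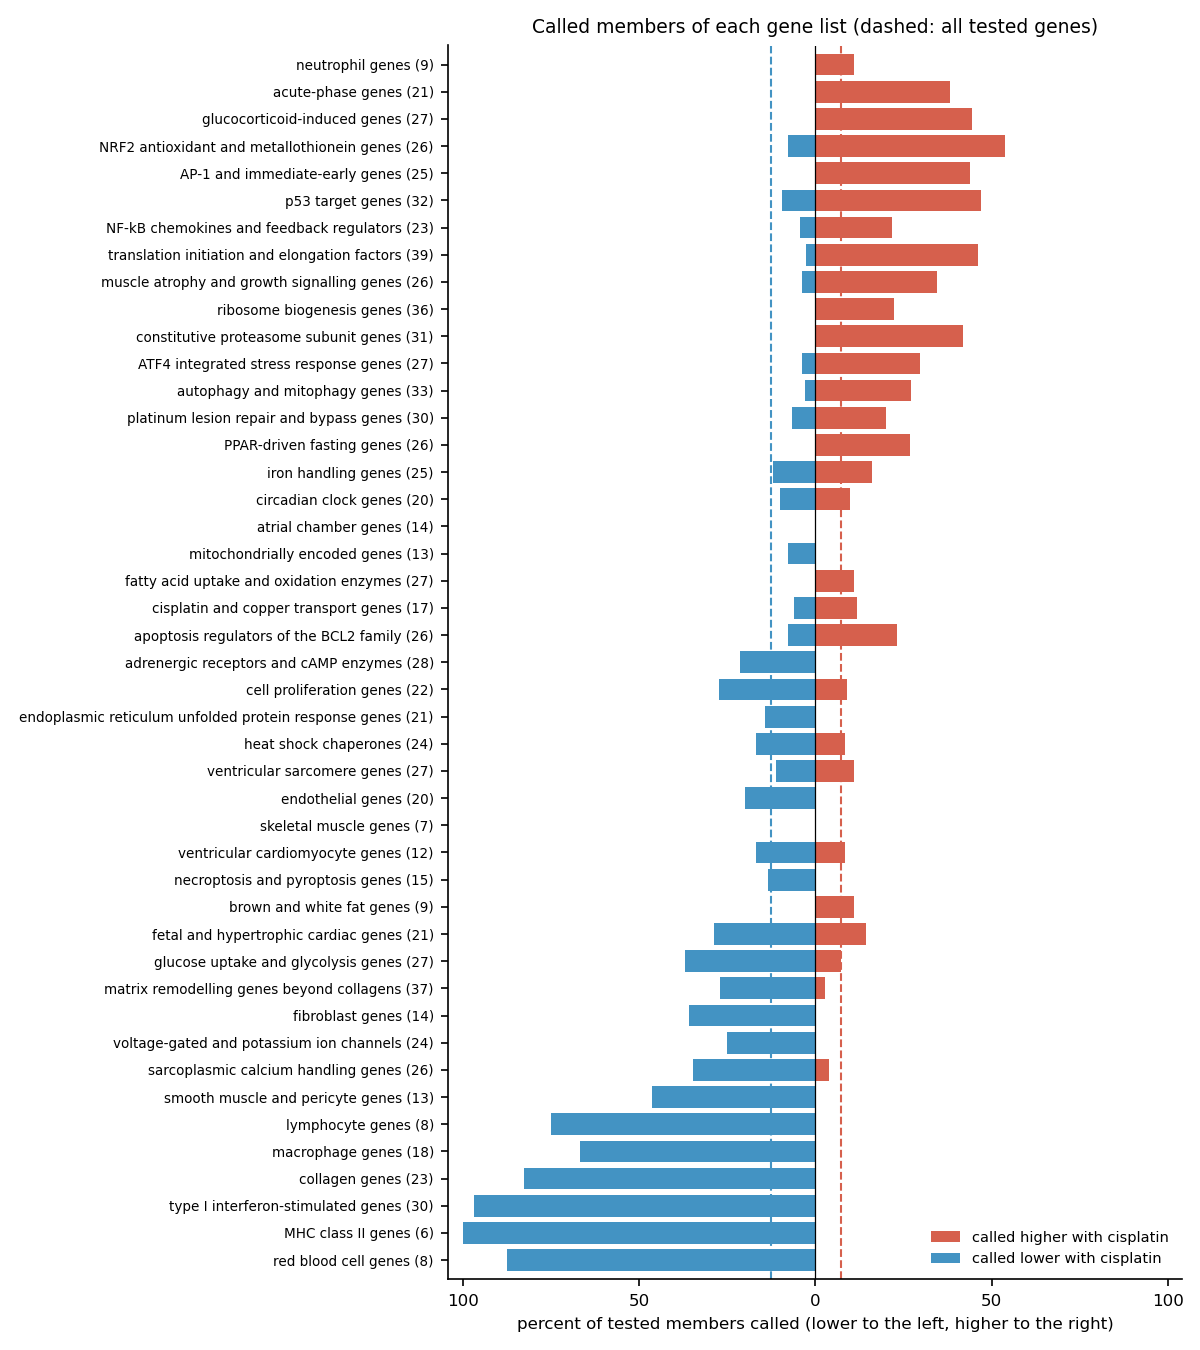
Percent of the tested members of each of 45 gene lists that were called higher (red, to the right) or lower (blue, to the left) with cisplatin on the average of both genotypes, ordered by the median change, with the number tested in brackets. Dashed lines mark 7.28% higher and 12.6% lower among all 13815 genes; interferon-stimulated, MHC class II, collagen and macrophage genes lie far beyond the lower line.

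Targets of p53 were called in both directions. Of 32 p53 target genes tested, 15 were called higher, against 7.28% of all genes, and 3 were called lower. The rises included the cell cycle inhibitor Cdkn1a, the death genes Bax, Bbc3, Pmaip1, Fas and Tnfrsf10b, the stress genes Gdf15, Sesn2, Btg2, Plk3 and Trp53inp1, the receptor Eda2r, the AKT inhibitor Phlda3, the nuclease Aen and the repair nuclease Ercc5. Cdkn1a (chr17:29090976-29100727) had TPM of 32.8, 48.8 and 65.8 in Saline and 219.8, 196 and 232 in CDDP hearts, and 42.3, 63.3 and 46.3 in STING-/- and 172, 216 and 124 in STING-/-+CDDP hearts. Every heart with cisplatin was above every untreated heart (change 1.94, SE 0.18, limma adjusted p = 0.000149), and both genotypes passed on their own (2.17 and 1.72). Gdf15 (chr8:70629393-70632456), a circulating stress hormone that suppresses appetite, went from 1.17, 0.86 and 0.94 to 5.71, 4.46 and 6.30 TPM in wild-type and from 0.74, 1.19 and 1.20 to 4.15, 6.69 and 2.85 in STING-/- hearts (change 1.55, SE 0.17, limma adjusted p = 0.000316), and was also called in each.

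Mdm2, which feeds back on p53, was at 0.28 and not called, and so were Zmat3 (0.28), Sesn1 (0.34) and Ddb2 (0.43). Ccng1 (chr11:40748552-40755311), a cyclin known as a p53 target, was lower and not higher, with TPM of 212, 230.4 and 249 in Saline and 106, 93.8 and 138 in CDDP hearts. In STING-/- hearts it had 247, 232 and 271 without and 151, 151 and 115 with cisplatin, again with no overlap (change -0.95, SE 0.11, limma adjusted p = 0.000476). The other falls were Ak1, an adenylate kinase of muscle, at -0.53, and Pltp, a lipid transfer protein, at -1.64. Trp53inp1, which promotes death and autophagy, rose by 1.85 on the average, with 2.61 in wild-type and 1.09 in STING-/- hearts, a difference that did not pass adjustment.

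The p53 motif, searched as a single copy of the repeat that makes up the factor's binding site, was in 6.84% of all promoters. It was in 6.06% of those of genes called higher and 7.81% of those called lower. Of the promoters of the p53 list, 29.2% (7 of 24) held it. Of the 12 called higher with a promoter in the table, 3 held it. They are printed with the matches in capitals, each of which is a single exact copy of the repeat and not by itself a full site. In Cdkn1a the lower-case letters directly after the last match differ from the repeat only at their first base. The search took exact copies only and left them unmarked, so the letters there come close to a full site.
Cdkn1a (chr17:29090896-29090947, plus strand): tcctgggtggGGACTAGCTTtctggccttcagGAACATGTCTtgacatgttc
Bax (chr7:45467080-45467109, minus strand): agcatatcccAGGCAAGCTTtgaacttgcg
Aen (chr7:78895927-78895956, plus strand): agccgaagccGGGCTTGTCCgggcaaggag
Bax changed by 0.79 (limma adjusted p = 0.00794) and Aen by 0.52 (0.0293 by the same test). For genes with several listed starts the first was used, and sites outside these windows were not searched.

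Metallothioneins and the antioxidant genes driven by NRF2 were higher. Of 26 genes tested, 14 were called higher and 2 lower, against 7.28% and 12.6% of all tested genes. Their median was 0.55, with 0.69 in wild-type and 0.27 in STING-/- hearts. In STING-/- hearts alone 0 of the 26 were called by limma, with 10 higher and 0 lower at an unadjusted p under 0.05. The difference between the genotypes was called for 0 of them, while 8 had an unadjusted interaction p under 0.05. Mt2 (chr8:94172664-94173568), a small protein that binds metal ions, had TPM of 24.1, 308 and 174 in Saline, 4223, 769 and 1347 in CDDP, 438, 616 and 262 in STING-/- and 1176, 973 and 1003 in STING-/-+CDDP hearts. It varied widely within the Saline and CDDP groups, yet no untreated heart reached a heart with cisplatin (change 2.61, SE 0.57, limma adjusted p = 0.00916). Mt1 (chr8:94179082-94180327) changed by 2.05 (SE 0.31, limma adjusted p = 0.00144), with 2.96 in wild-type and 1.13 in STING-/- hearts. Nqo1, which reduces quinones, rose by 1.20, Gclm, the regulatory subunit of glutathione synthesis, by 1.12, Gsta1, a glutathione transferase, by 1.23, and superoxide dismutase Sod1 by 0.63. Mitochondrial Sod2 and the malic enzyme Me1 fell by 0.34 and 0.32 on the log2 scale, and the peroxidases Prdx1 and Prdx6 and thioredoxin (Txn1) were at -0.02, -0.01 and 0.05 and were not called.

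The antioxidant response element core, TGACNNNGC on either strand, was in 14.7% of all promoters. It was in 15.8% of those of genes called higher, 13.7% of those called lower and 31.8% (7 of 22) of those of this list. The 4 of 12 called higher that held it are shown with the match in capitals, which on the other strand reads GCNNNGTCA.
Mt2 (chr8:94172529-94172557, plus strand): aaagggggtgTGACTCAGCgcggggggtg
Gclm (chr3:122245413-122245441, plus strand): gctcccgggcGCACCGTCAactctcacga
Srxn1 (chr2:152105542-152105570, plus strand): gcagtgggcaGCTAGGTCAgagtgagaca
Sod1 (chr16:90220696-90220724, plus strand): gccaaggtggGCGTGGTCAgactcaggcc
Srxn1, which repairs oxidised peroxiredoxins, changed by 0.81 (limma adjusted p = 0.0114). Searched in the same way, the E-box CACGTG was in 10.3% of all promoters and 10.8% of those of genes called higher, the cyclic AMP response element TGACGTCA in 3.06% and 3.43%, and the heat shock element (GAANNTTC or TTCNNGAA) in 11.8% and 14.2%.

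The largest separated rises common to both genotypes included enzymes better known from the liver. Fah (chr7:84585159-84606722), the last enzyme of tyrosine breakdown, had TPM of 5.75, 6.99 and 7.04 in Saline and 40.6, 59.4 and 49.5 in CDDP hearts, and 11.02, 12.9 and 12.3 in STING-/- and 46.9, 49.7 and 44.5 in STING-/-+CDDP hearts. Its change of 2.30 (SE 0.11, limma adjusted p = 9.26e-07) had a small error, and the values within each group lay close together. Gnmt (chr17:46725664-46729168), which methylates glycine and controls the methyl donor, went from 1.03, 1.41 and 2.09 to 14.4, 16.5 and 9.55 and from 1.77, 2.77 and 2.27 to 10.02, 10.4 and 12.8 TPM (change 2.20, SE 0.16, limma adjusted p = 2.71e-05). Hsd11b1 (chr1:193221634-193264075), which regenerates active glucocorticoid inside cells, went from 17.1, 15.7 and 25.5 to 105, 95.9 and 82.3 and from 22.2, 17.1 and 14.01 to 57.3, 49.5 and 53.1 TPM (change 1.90, SE 0.14, limma adjusted p = 3.29e-05). These 3 genes were called in each genotype, with no overlap between hearts with and without cisplatin.

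Khk, which starts fructose breakdown, and Dcxr, a sugar and dicarbonyl reductase, were chosen after their values had been seen and were called in each genotype, with changes of 1.11 and 1.57. Dcxr had 8.55, 11.6 and 9.68 TPM in Saline, 29.5, 33.7 and 34.1 in CDDP, 9.62, 9.31 and 7.91 in STING-/- and 31.1, 26.4 and 25.3 in STING-/-+CDDP hearts, so it moved by a like amount in each genotype (1.62 and 1.52). Syt12 (chr19:4445908-4477447), a vesicle protein, Spata24, and Lrg1, an acute-phase protein, were also among the 10 largest separated rises, at 2.28, 1.95 and 2.22 (limma adjusted p = 0.000389, 0.000283 and 0.00608). In STING-/- hearts alone Syt12 (1.63, limma adjusted p = 0.0674) and Lrg1 (1.38, 0.37 by the same test) were not called. Lrg1 was uneven among the CDDP hearts, with 982, 157 and 129 TPM. Spata24 had 2.85, 0.88 and 1.81 TPM in Saline, 7.84, 11.6 and 8.03 in CDDP, 1.25, 0.37 and 0.58 in STING-/- and 4.61, 5.47 and 8.20 in STING-/-+CDDP hearts.

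Genes that PPAR factors raise in fasting were called higher in 7 of 26 cases and lower in 0, against 7.28% higher and 12.6% lower among all tested genes. The median of the 26 was -0.02 in wild-type hearts, where 3 were higher and 3 lower at an unadjusted p under 0.05, and 0.32 in STING-/- hearts, where 11 were higher and 0 lower. The difference between these medians was not tested. Of 27 enzymes and carriers of fatty acid uptake and oxidation 3 were called higher and 0 lower, with a median of -0.02 in wild-type and 0.12 in STING-/- hearts. The 3 were Lpl, which frees fatty acids from lipoproteins, Pnpla2, the lipase that opens stored fat, and Slc27a1, a fatty acid transporter, at 0.79, 0.80 and 0.82 (limma adjusted p = 0.000857, 0.0138 and 0.0436). Of 27 glycolysis genes 10 were called lower and 2 higher, and the muscle enolase Eno3 and phosphoglycerate mutase Pgam2 changed by -0.65 and -0.62 (limma adjusted p = 0.00385 and 0.0118). Of 20 circadian clock genes, 2 were called higher and 2 lower.

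Autophagy genes were called higher in 9 of 33 cases and lower in 1, against 7.28% and 12.6% of all tested genes. Their median was 0.26 in wild-type and 0.01 in STING-/- hearts, and 10 were called in wild-type and 2 in STING-/- hearts alone. Sqstm1 (chr11:50199366-50210827), which carries cargo to the autophagosome, had TPM of 166, 261 and 209 in Saline, 525, 818 and 752 in CDDP, 204, 201 and 176 in STING-/- and 380.1, 359 and 371 in STING-/-+CDDP hearts. Its change was 1.32 (SE 0.13, limma adjusted p = 0.000188), and that of Map1lc3b (chr8:121590361-121598760), the protein that coats the autophagosome, 1.21 (SE 0.11, limma adjusted p = 9.29e-05). Both were called in each genotype with no overlap. Bnip3, a receptor that marks mitochondria for removal, went from 95.4, 147 and 176 to 316, 789 and 554 and from 181, 213 and 149 to 485, 402 and 567 TPM (change 1.67, SE 0.22, limma adjusted p = 0.000648). It was not called in STING-/- hearts alone (1.42, limma adjusted p = 0.0614). The lysosomal protease Ctsl changed by 1.43, with 2.02 in wild-type and 0.85 in STING-/- hearts, where it was not called. Of 26 atrophy and growth signalling genes 9 were called higher and 1 lower.

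Proteasome and translation genes showed small rises in many members. Of 31 constitutive proteasome subunits, 13 were called higher and 0 lower, against 7.28% and 12.6% of all tested genes. The 13 rises lay between 0.26 and 0.99 on the log2 scale. Psmd4 (chr3:95032694-95042614), a ubiquitin receptor of the proteasome, was called in each genotype, with 78.3, 94.4 and 75.5 and 193, 186 and 220.0 TPM in wild-type and 84.3, 90.6 and 76.3 and 146, 138 and 130.3 in STING-/- hearts. Of 39 translation factors, 18 were called higher and 1 lower, among them Eef2 at 0.60 and Eif1 at 0.83 (limma adjusted p = 0.00142 and 0.000537), and of 36 ribosome biogenesis genes 8 were higher and 0 lower. For these lists the median was larger in wild-type than in STING-/- hearts, 0.42 and 0.06 for the proteasome, 0.52 and 0.13 for translation factors, and 0.49 and 0.00 for ribosome biogenesis. The difference between the genotypes was called for 0 of these genes, while 11, 9 and 10 of them had an unadjusted interaction p under 0.05.

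Inflammatory genes formed another set whose median rise was larger in wild-type hearts. Acute-phase genes were called higher in 8 of 21 cases and lower in 0, against 7.28% and 12.6% of all tested genes. Their median was 1.45 in wild-type and 0.11 in STING-/- hearts. Immediate-early genes were called higher in 11 of 25 cases and lower in 0, with medians of 1.07 and 0.28. Of glucocorticoid-induced genes, a list that shares Mt1, Mt2, Cdkn1a and Lcn2 with others, 12 of 27 were called higher and 0 lower (median 0.98 and 0.43). The difference between the genotypes was called by limma for 0 genes of these lists, while 8, 12 and 7 had an unadjusted interaction p under 0.05. Saa3, an acute-phase protein, had TPM of 1.01, 3.46 and 1.98 in Saline and 651, 334 and 220.3 in CDDP hearts, but 6.84, 109.6 and 3.78 in STING-/- and 65.5, 66.9 and 58.3 in STING-/-+CDDP hearts, so 1 untreated STING-/- heart lay above the treated ones. It was called on the average (4.47, SE 0.63, limma adjusted p = 0.00101) and not in STING-/- hearts alone (2.00, adjusted p = 0.359). Junb, a subunit of the AP-1 factor, changed by 2.46 in wild-type and 0.80 in STING-/- hearts, with no overlap in either (averaged change 1.63, limma adjusted p = 0.00133). Neutrophils also make Lcn2, which is on the acute-phase and the neutrophil list, so the neutrophil sums given above are not separate from these genes. In CDDP 1, 2 and 3 Lcn2 had 985.5, 172 and 261 TPM of neutrophil sums of 2178, 223 and 294. In STING-/-+CDDP hearts it had 183, 166 and 126 TPM of 236, 210.5 and 165. The part of those cells was not tested.

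Of 30 tested genes that repair or bypass platinum lesions, 6 were called higher and 2 lower (26.7% called, against 19.8% of all tested genes), with a median of 0.17. Ercc1, the partner of the nuclease that cuts at the lesion, changed by 0.73 (SE 0.15, limma adjusted p = 0.00622). Fancd2, Fanci and Brca1 were below 1 TPM in every heart. Poln (chr5:34007179-34169448), a polymerase able to copy past lesions and on no list, was called in each genotype (change 1.72, SE 0.28, limma adjusted p = 0.00183) at low levels, 1.50, 0.59 and 0.59 TPM in Saline, 5.30, 5.13 and 1.70 in CDDP, 0.51, 1.81 and 1.94 in STING-/- and 13.6, 7.72 and 6.52 in STING-/-+CDDP hearts. It was chosen after its values had been seen. Of 21 genes of the unfolded protein response 0 were called higher and 3 lower, and of 24 heat shock chaperones 2 and 4.

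**Figure D4:**
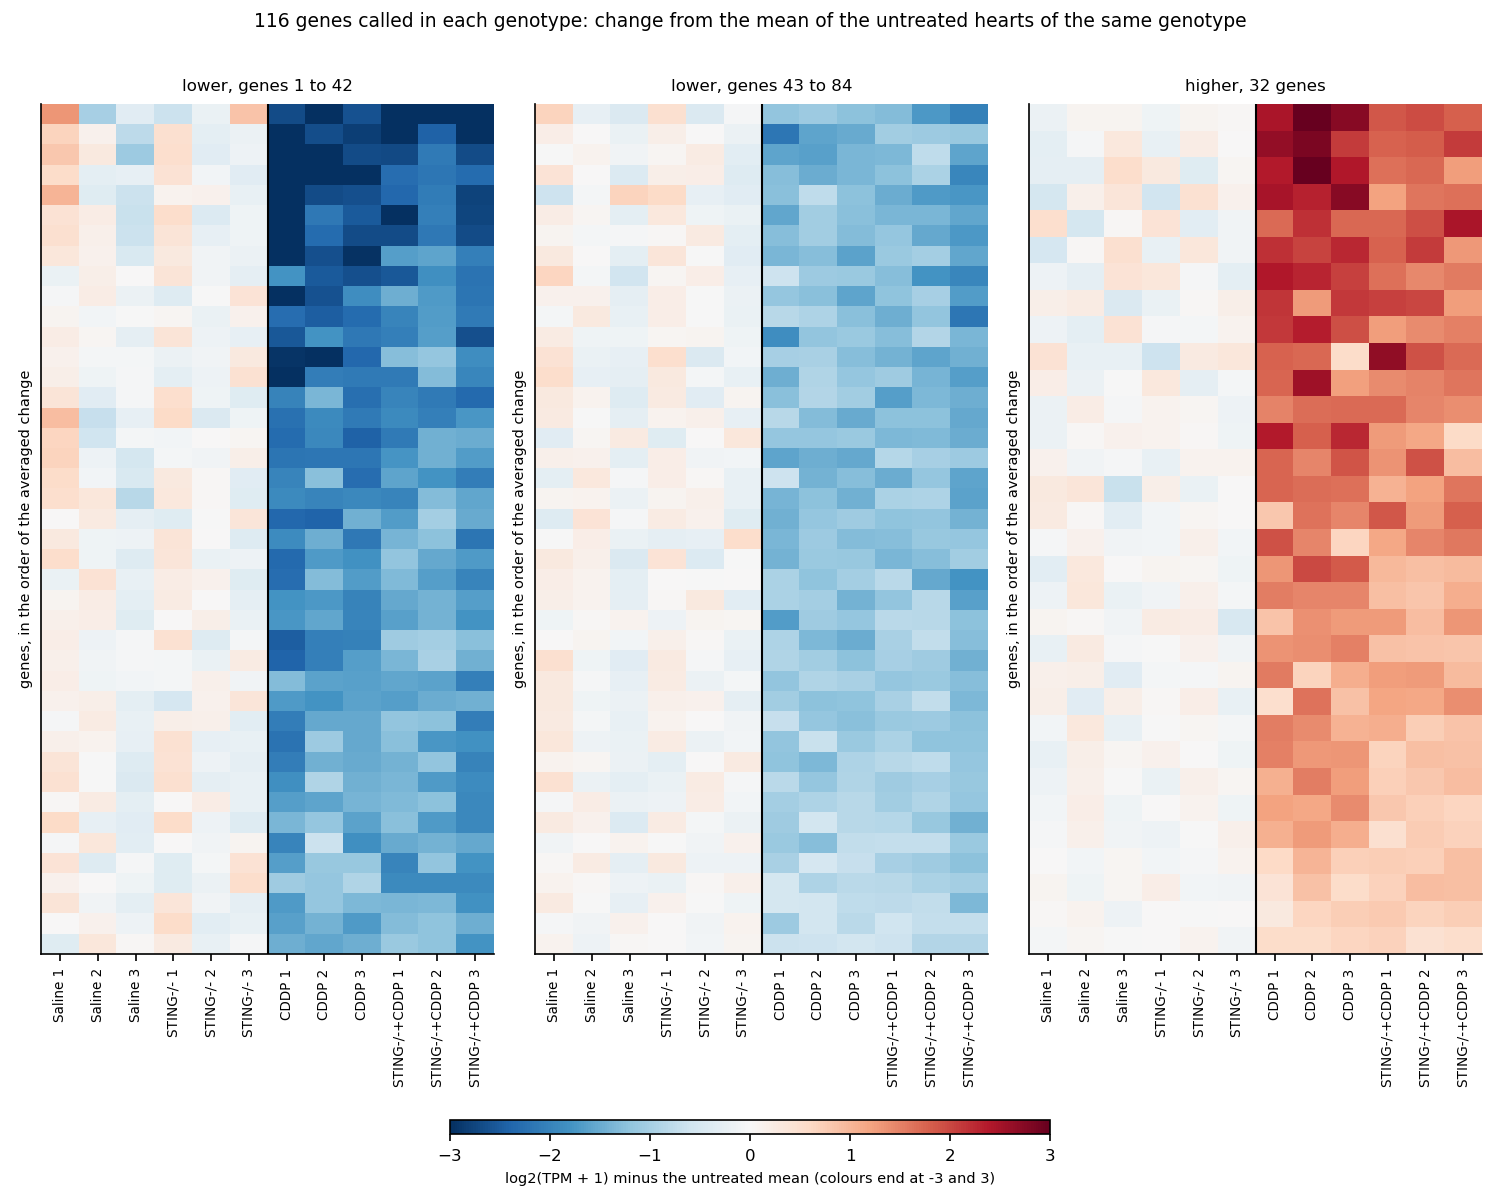
Heat map of the 116 genes called in each genotype (rows in the order of the averaged change, 84 lower in the left and middle panels and 32 higher in the right panel) over the 12 hearts (columns, untreated hearts left of the black line). Colour gives log2(TPM + 1) minus the mean of the untreated hearts of the same genotype, from blue (-3 or below) to red (3 or above), and in each gene the hearts with cisplatin do not overlap the untreated hearts of their genotype.

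Genes that extend over long stretches of DNA were lower more often than short ones, a grouping chosen after the values had been seen. The length from the start to the end of each gene, introns included, was known for 13520 tested genes. Of the 9941 genes of up to 50 kb, 11.3% were called lower and 8.62% higher. The share called lower was 11.1% of 1855 genes of 50 to 100 kb, 17.7% of 1111 genes of 100 to 200 kb, 27.8% of 436 genes of 200 to 400 kb, 45.5% of 134 genes of 400 to 800 kb and 41.9% of 43 genes over 800 kb. The share called higher was 0.75% of the genes of 400 to 800 kb and 2.33% of those over 800 kb. Over 23 other fits, each heart left out among them, 36.7% to 49.7% of the 177 genes over 400 kb were called lower, against 7.6% to 13.8% of those up to 50 kb. Where 3 hearts had to reach a TPM of 5 the shares were 42.9% of 84 and 12.5% of 6925. The genes of 400 to 800 kb had a median change of -0.58 with wild-type and -0.40 with STING-/- mice, against 0.03 and -0.07 for those up to 50 kb, so the order appeared in each genotype.

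The same could be read heart by heart. The median deviation of the 177 genes over 400 kb from the untreated mean of their genotype, less that of the genes up to 50 kb, was -0.79, -0.42 and -0.53 for CDDP and -0.37, -0.35 and -0.35 for STING-/-+CDDP. In the untreated hearts, where it centres on 0 by construction, it lay between -0.03 and 0.06. The length of the mature transcript showed no such order for the falls, since 11.0% of the fifth with the shortest transcripts and 12.9% of the fifth with the longest were called lower, while the share called higher went from 10.3% to 3.18%. Long genes were also expressed less, with a median TPM of 4.35 at 400 to 800 kb against 9.09 up to 50 kb, and among the 84 genes called lower in each genotype 6 exceeded 400 kb (7.14%, against 1.31% of the 13520 tested genes). The typical gene of the 84 was nevertheless short, with a median of 14.7 kb against 21.9 kb for all tested genes.

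Examples of the long genes, chosen after their values had been seen, were Slc9a9 (560.5 kb), an endosomal proton exchanger, and Wwox (913.1 kb), a tumour suppressor on a fragile site. Slc9a9 (chr9:94669909-95230445) had TPM of 3.55, 4.01 and 2.48 in Saline, 0.24, 0.30 and 0.07 in CDDP, 3.74, 3.07 and 2.34 in STING-/- and 0.39, 0.50 and 0.27 in STING-/-+CDDP hearts (change -1.69, SE 0.14, limma adjusted p = 7.87e-05). Wwox (chr8:114439655-115352708) had 2.30, 3 and 1.99 TPM in Saline, 0.67, 0.78 and 0.90 in CDDP, 1.90, 2.78 and 2.07 in STING-/- and 0.57, 0.72 and 0.45 in STING-/-+CDDP hearts (change -0.98, SE 0.13, limma adjusted p = 0.000585). Fhit (chr14:9550092-11162035), another fragile site gene of 1611.9 kb, had 1.44, 1.24 and 1.02 TPM in Saline and 1.91, 2.33 and 4.44 in STING-/- hearts, and was listed at 0 in all 3 STING-/-+CDDP hearts and in CDDP 2. Dystrophin (Dmd, 2257.3 kb), which anchors the muscle cytoskeleton, changed by -0.92 (limma adjusted p = 0.00396). Celf2, an RNA-binding protein of 969.9 kb, was the single gene over 800 kb that was called higher, at 1.29.

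**Figure D5:**
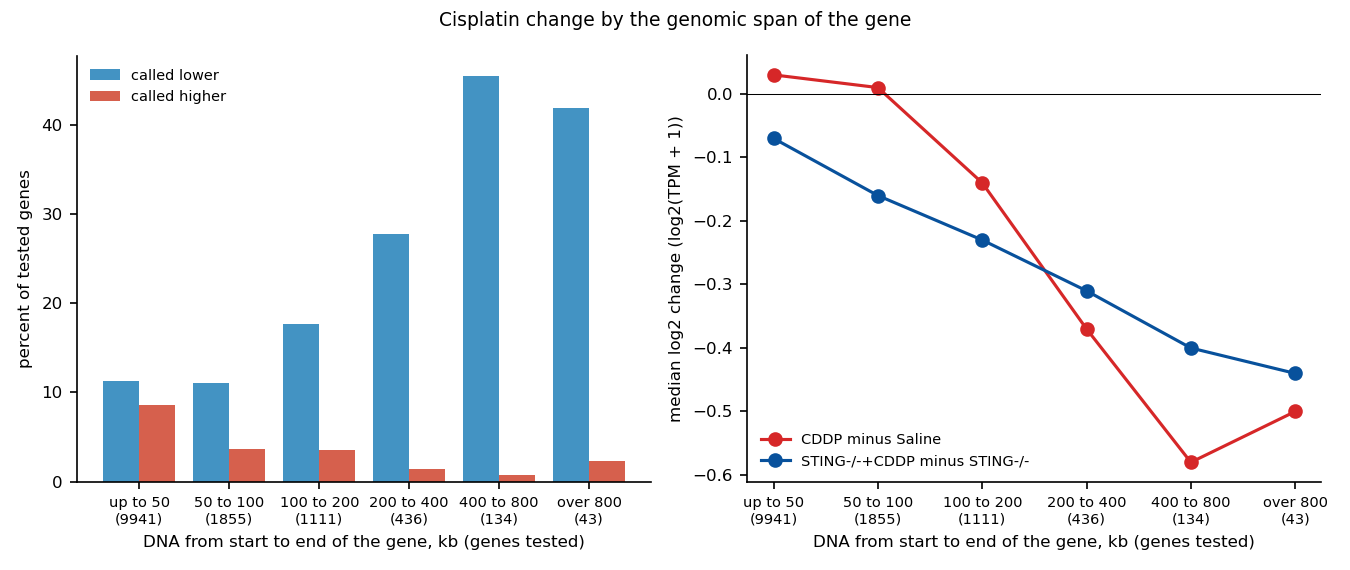
Left, percent of tested genes called lower (blue) and higher (red) with cisplatin in 6 groups by the length of DNA from start to end (x axis, kb, with the number of genes in brackets). Right, median log2 change of each group in wild-type hearts (red) and STING-/- hearts (blue): both lines end far below where they start.

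The size of the response was larger in wild-type than in STING-/- hearts for 83.5% of the called genes and for 66.7% of all genes tested. The difference between the genotypes was called for 1 gene, the pseudogene Rpl3-ps1, and 1615 genes (11.7%) had an unadjusted interaction p under 0.05. Among the 116 genes called in each genotype, 20 had such a p and 70 had the larger change in wild-type hearts. A p that misses the threshold does not show that the genotypes responded alike. The median standard error was 0.152 for the averaged change and 0.216 for the change within a genotype, so that with 3 hearts a group the comparison within a genotype was less precise than the average.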

How the data were processed

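RNA sequencing measured whole-tissue expression in 12 mouse hearts, 3 in each of 4 groups taken from the labels. The authors deposited TPM values for 55885 genes on GRCm38.p5, and the submitters' processing notes name fastp, HISAT and RSEM without versions. TPM add up to the same total in each heart, so depth and counting error are unknown. Its 4 group mean columns were left out. Positions came from GENCODE M21, which held 55141 of the identifiers, and promoters from RefSeq.

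The 13815 genes that reached a TPM of 1 in 3 or more hearts were fitted on log2(TPM + 1) with limma 3.58.1 in R 4.3.3, with 4 group means, 8 residual degrees of freedom, a variance trend and Benjamini-Hochberg adjustment at 0.05. The cisplatin change was taken within each genotype, averaged, and compared between genotypes. Single genes were also tested by exact permutation of treatment within genotype, with 400 arrangements. With 3 hearts against 3, an exact test within 1 genotype cannot go below 0.10. Scripts were tested on simulated data.

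Genes were named by a rule: the 10 largest rises and falls with no overlap in either genotype, and of each of 45 lists up to 4 called members (the most abundant and the most changed), those called in each genotype and marker genes near 0. The comparison and the lists were chosen with earlier results of these data known. Hearts of a group are separate samples in the labels, and nothing says whether equal numbers mark a shared day or litter. Alternatives changed the pseudocount, filter, scaling, model, weights and the hearts included. Some genes that the rule for named genes or the lists would name are not reported here.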

Additional observations from a re-analysis of the deposited data

Results flagged for a closer look

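The pseudogene Rpl3-ps1 was the single gene whose cisplatin change differed between the genotypes after adjustment, with a difference of 6.88 on the log2 scale (limma). With Saline it reached 104, 173 and 89.2 TPM, and it was listed at 0 in the other 9 hearts, so the fitted value depends on the pseudocount and no fold is given. It is a processed copy of the ribosomal gene Rpl3, with which reads can be shared.

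Snd1, a nuclease that takes part in RNA processing, was higher with cisplatin in wild-type hearts and barely lower in STING-/- hearts. The difference between the genotypes was -1.39 on the log2 scale. Its TPM was 27.9, 40.4 and 22.2 in Saline and 78.7, 57.1 and 68.4 in CDDP hearts, against 27.1, 39.6 and 28.5 in STING-/- and 26.9, 27.0 and 26.5 in STING-/-+CDDP hearts. In STING-/- mice the lowest untreated heart, at 27.1, lay just above the highest with cisplatin, at 27.0. The difference had an unadjusted limma interaction p of 0.000698 and an adjusted p of 0.286. Of all tested genes, 58 had hearts that did not overlap in opposite directions, and Snd1 was the single one of these that was called on the average.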

How the results depend on the processing

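No named gene reversed the direction of its averaged change under the alternatives run, but the balance of rises and falls turned with the scaling, since 1006 rises and 1734 falls became 1973 and 1846 with the median of ratios and 2035 and 1927 with quantile normalization. The 20 genes with the largest separated changes, picked from these same hearts, kept their call under 25 of 25 alternatives. Of 3468 pairs of a named gene and an alternative, 3167 kept the call and 301 lost it. The lists and the genes over 400 kb gave 1103 pairs with an alternative. In 18 of these the median change moved by more than the median standard error of the single member genes. Without a filter on low values, 46 genes were called in STING-/- hearts and 42 in each genotype. Scaling by the median of ratios gave 1973 rises, 250 calls in STING-/- hearts, 228 in each genotype and 3 differences between genotypes, and quantile normalization gave 2035, 297, 263 and 3. Weighting the hearts by their fit gave 1706, 613, 438 and 2, and the atrial covariate gave 4 differences. Of the 2740 calls, 2528 were also made after the median of ratios and 2533 after quantile normalization. A minimum change of 1 on the log2 scale left 547 calls, 171 higher and 376 lower, and 1106 in wild-type hearts. The causes of these shifts were not tested.

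Leaving out each heart in turn gave 1887 to 2653 averaged calls, 633 to 1167 higher, 1160 to 1818 lower, 1241 to 2548 in wild-type hearts, 15 to 203 in STING-/- hearts, 15 to 171 in each genotype and 1 to 15 differences, the most without Saline 3. Where a group was left with 2 hearts, the spread was still pooled over all groups.

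With the replicate number as a block, 843 genes were higher and 1500 lower, and 100 were called in each genotype. The numbers did not pair the hearts, since the correlations of their deviations ran from -0.33 to 0.26 over 18 pairs, 4 were over 0.1, and 1 heart correlated best with its own number.

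The unknown depth limits what can be said of genes near 0. Within STING-/- mice, 129 genes were called, a count that moved with every STING-/- heart left out.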

Other observations

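Gene groups not described above gave mixed counts on the average of both genotypes. They stand beside 19.8% of all tested genes that were called, 7.28% higher and 12.6% lower, and several of the lists lay near these shares. Of 27 genes of the ATF4 integrated stress response 8 were called higher and 1 lower by limma, with a median of 0.47 in wild-type and 0.10 in STING-/- hearts, and of 23 NF-kB chemokines and feedback regulators 5 were higher and 1 lower (medians 0.55 and -0.01). Of 26 apoptosis regulators of the BCL2 family 6 were called higher and 2 lower, and of 15 necroptosis and pyroptosis genes 0 and 2. Cell proliferation genes had 2 of 22 higher and 6 lower, and fetal and hypertrophic genes 3 of 21 higher and 6 lower. Of 17 genes for the transport of cisplatin and copper 2 were called higher and 1 lower, and the 2 rises were Mt1 and Mt2, which stand on that list as metal-binding proteins. Of 13 mitochondrially encoded genes 1 was called lower, while mt-Nd6 and mt-Atp6 were listed at 0 in every heart. The share of all TPM on these genes was 18.8% to 27.6%. Markers of other muscle and fat gave few calls, with 0 of 7 skeletal muscle genes called (0 at an unadjusted p under 0.05), 1 of 9 fat genes higher, and 1 of 12 ventricular genes higher with 2 lower.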
